A study of Oryza sativa with 9 samples.

Results

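The transcripts described here are those in which spikelets of the rice genotype f5-i/i stood apart from spikelets of the genotype f5-j/j. They are all 421 rows, of 379 loci, of the authors' deposited table for this pair of genotypes, out of 832 transcripts listed in the 3 tables of the series. The other tables set the heterozygote f5-i/j beside f5-i/i (480 transcripts) or beside f5-j/j (350 transcripts). PolyA RNA of 9 spikelet samples of rice (Oryza sativa) was sequenced, with 3 samples of f5-i/i, the same number of f5-i/j and also of f5-j/j. All the plants were field-grown BC14F2 plants, the selfed progeny of repeated backcrosses, so the genotypes share that background and are labelled as differing at f5. The labels leave unsaid whether replicates were taken from different plants, and the sources used here give neither the stage of the spikelets nor the time of sampling.

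A spikelet is the floral unit of a grass, with green hull organs around the stamens and the pistil. The locus f5 is known for male sterility in hybrids between rice subspecies, a state of the heterozygote. The homozygotes carry 1 kind of allele each and show what the i and j alleles go with in the absence of that state. Transcripts of a spikelet come from many cell types, and in such bulk RNA fewer cells of a type and less RNA per cell cannot be told apart.

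Every value below is the authors' mean of a genotype in the authors' deposited table, in a unit that is not stated. No value of a single sample was analysed, so no mean has an error, the depth of the samples is unknown and no difference could be set against the spread between replicates. A mean may rest on 1 of its samples. The lowest value is 0.01, and no fold is given against it. Near-identical genes and transcript models of 1 locus share reads, which makes the level of a single model uncertain. Descriptions are those of the files, mostly KEGG Orthology names taken over from similar proteins, and loci are named by their rice identifiers.

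Of the 421 listed transcripts, 190 had the higher mean in f5-i/i and 231 the lower one, that is 45.1% higher (Wilson 95% interval 40.4% to 49.9%, for counting error only). In 207 transcripts both genotypes had a mean above the lowest value, with 89 on the higher and 118 on the lower side for f5-i/i (43.0% higher). The other 214 stood at the lowest value in 1 genotype, 113 of them in f5-i/i, the remaining 101 in f5-j/j. By locus, 168 were higher and 203 lower (45.3% higher and 54.7% lower of 371 loci), and 8 loci had transcript models listed in opposite directions. The Wilson 95% interval of the share of loci higher was 40.3% to 50.4%, which takes in an even split. The shares given here are the background for the counts of gene groups below.

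Above the lowest value the median ratio was 7.37-fold, a log2 ratio of 2.88 in either direction, with quartiles of 4.29-fold and 17.6-fold. Transcripts higher in f5-i/i differed by a median of 8.13-fold, and those lower by a median of 5.69-fold. The range ran from 3.04-fold for a secretory carrier-associated membrane protein (LOC_Os05g42330.2, with means of 253 in f5-i/i against 83.2 in f5-j/j) to 934-fold for a heat shock transcription factor (LOC_Os03g53340.4). In 6 of the 207 transcripts the smaller mean lay under 0.1, so the size of such ratios is uncertain. Of the 26 transcripts with a larger mean over 100, f5-i/i had the higher mean in 9 and the lower one in 17.

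**Figure D1:**
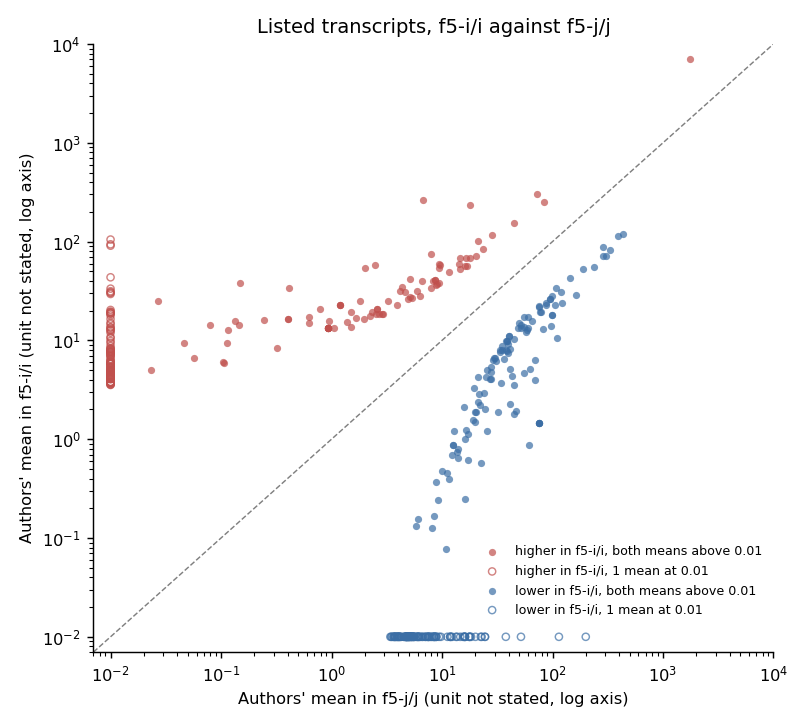
The authors' mean in f5-i/i (vertical) is plotted against that in f5-j/j (horizontal) for each of the 421 listed transcripts, on log axes in a unit that is not stated. Filled points are the 207 transcripts with both means above 0.01, open points the 214 with 1 mean at 0.01, and the dashed line marks equal means, from which listed transcripts keep a distance of at least 3.04-fold.

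Transcripts at 0.01 in f5-j/j had a median mean of 5.89 in f5-i/i, between 3.54 and 105, and 10 of 101 were over 20. Those at 0.01 in f5-i/i had a median mean of 5.70 in f5-j/j, between 3.41 and 200, and 9 of 113 were over 20. Such all-or-none rows are thus mostly of low level. The authors' listing follows both the ratio and the level. The other tables give the means of both homozygotes for 133 transcripts that are not in this one. Among these the largest ratio was that of LOC_Os06g30060.2, with 20.0 in f5-i/i against 4.25 in f5-j/j, and the median log2 ratio in either direction was 0.52 over the 99 above the lowest value. The weakest listed transcript at the lowest value was a subunit 18 of Mediator (LOC_Os02g10050.2), at 0.01 in f5-i/i against 3.41 in f5-j/j. Of the 133 unlisted transcripts, 33 stood at the lowest value in both homozygotes. The only one at it in a single homozygote was LOC_Os01g55490.3, at 0.01 in f5-i/i against 0.0333 in f5-j/j. It cannot show at what level such rows begin to be listed.

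Loci were then sorted by words in their descriptions into 21 roles, of which 19 had a listed member. A word can match within an unrelated name, so the counts below leave out the matches recognised as such. That step was added after the data were seen, and the count with them is given where it differs.

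**Figure D2:**
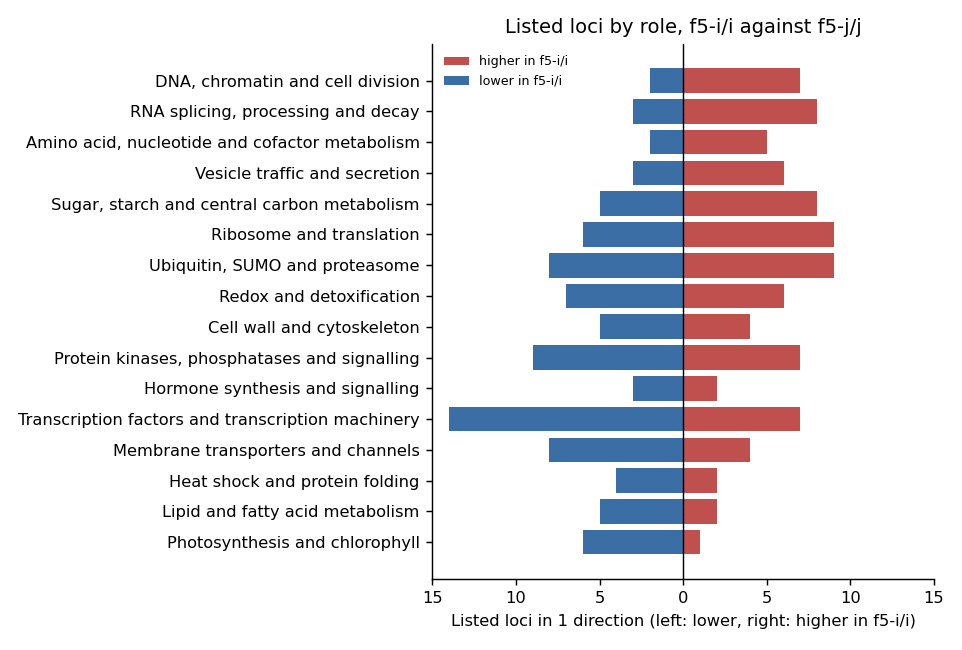
Bars give the number of listed loci lower (left of 0) and higher (right of 0) in f5-i/i when set against f5-j/j, for each role with at least 5 loci, without mistaken word matches. Photosynthesis (1 higher, 6 lower) stands at one end, and chromatin and cell division (7 higher, 2 lower) at the other.

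Photosynthesis transcripts were lower in f5-i/i at 6 of 7 loci, while 54.7% of all listed loci were lower. Light-harvesting proteins are the chlorophyll antennae of the photosystems, and light-harvesting complex I protein 2 (LOC_Os07g38960.2) had a mean of 2.27 in f5-i/i against 41.0 in f5-j/j, 18.1-fold lower. The antenna proteins of photosystem II (LOC_Os03g39610 and LOC_Os09g17740) were 3.43- to 4.09-fold lower. Protochlorophyllide reductase, which carries out the light-driven step of chlorophyll synthesis, was listed with a pair of models of LOC_Os04g58200. Model 1 had 31.1 in f5-i/i against 121 in f5-j/j, and model 3 had 1.82 in f5-i/i against 44.6 in f5-j/j. Chlorophyllide a oxygenase (LOC_Os10g41780.1), which makes chlorophyll b, stood at 0.01 in f5-i/i against 20.1 in f5-j/j. The pattern took in enzymes of both chlorophyll forms and antennae of both photosystems. The locus that ran the other way is described as ferredoxin (LOC_Os04g57880.1), an electron carrier, with 4.45 in f5-i/i against 0.01 in f5-j/j. The coding length of this model is 1461 bases, long for a ferredoxin, so its description and its place in this role are doubtful. Outside this word list, geranylgeranyl reductase (LOC_Os02g51080.1), which supplies the phytyl tail of chlorophyll, had 13.2 in f5-i/i against 59.5 in f5-j/j.

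Loci described with words of the circadian clock or of day-length signalling were lower in f5-i/i at 3 of 3 loci. Over all listed loci 54.7% were lower. Plants time light responses by a clock in which the morning factor LHY is a core part, and day length reaches flowering through CONSTANS. The 2 loci described as LHY differed in size, 52.1-fold for LOC_Os08g06110, whose 4 listed models carry identical means, and 6.92-fold for LOC_Os06g51260. A CONSTANS-type zinc finger protein (LOC_Os09g35880.1) had 89.0 in f5-i/i against 285 in f5-j/j. Its coding length is 636 bases, and that of LOC_Os06g51260.1 is 1356 bases against 2160 for LOC_Os08g06110. Whether these loci are the LHY and CONSTANS of rice was not checked, so the count rests on names from similar proteins. Outside the clock list stood FKF1 (LOC_Os11g34460.1), which in Arabidopsis is a blue-light receptor that targets cycling DOF factors for degradation. It ran the other way, with 18.3 in f5-i/i against 2.69 in f5-j/j. DOF factors described as DOF5.5 were listed at 3 loci. The means were 1.25 in f5-i/i against 16.4 in f5-j/j for LOC_Os01g15900.1, and 6.62 in f5-i/i against 30.0 in f5-j/j for LOC_Os07g48570.1. The third of them, LOC_Os02g45200.2, had 5.30 in f5-i/i against 0.01 in f5-j/j. Levels of such genes move through the day, and the part of the sampling time in these differences was not tested.

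Sugar, starch and central carbon loci lay 8 on the higher and 5 on the lower side in f5-i/i (9 and 9 with mistaken matches). The 7 transcripts of the group above the lowest value came from 5 loci, 4 of them lower and 1 higher in f5-i/i, and those at the lowest value were mostly at it in f5-j/j. Granule-bound starch synthase (LOC_Os07g22930), which makes amylose, was lower with 3 listed models, 2 of them with identical means, by 3.66- to 4.04-fold. Beta-amylase (LOC_Os03g04770.1), which releases maltose from starch, was 8.13-fold lower, with 2.95 in f5-i/i against 24.0 in f5-j/j. A phosphoglycerate mutase of glycolysis (LOC_Os05g40420.2) had 12.3 in f5-i/i against 57.0 in f5-j/j. Both making and breaking of starch were thus represented among the lower transcripts. Isoamylase (LOC_Os08g40930.1), a debranching enzyme of starch, was the transcript of this level that was higher, with 36.0 in f5-i/i against 8.75 in f5-j/j. A second starch synthase (LOC_Os05g45720.2) stood at 4.52 in f5-i/i against 0.01 in f5-j/j. Models of glycolytic and malate enzymes were listed with a mean of 0.01 in f5-j/j. Among them were malate dehydrogenase (LOC_Os10g33800.3) at 90.9 in f5-i/i, phosphoglycerate kinase (LOC_Os02g07260.3) at 30.6, phosphofructokinase (LOC_Os08g43580.2) at 6.84, a decarboxylating malate dehydrogenase (LOC_Os10g35960.2) at 5.74, enolase (LOC_Os10g08550.3) at 4.16 and fructose-bisphosphate aldolase (LOC_Os09g25770.1) at 3.54.

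Membrane transporters were lower in f5-i/i at 8 loci and higher at 4 (9 lower and 7 higher with mistaken matches). Carriers of the sugar-exporting solute carrier family 50 move sucrose or glucose out of cells, and LOC_Os02g19820.1 of this family had 22.6 in f5-i/i against 88.0 in f5-j/j. A pair of loci described as solute carrier family 35 member E1 lay close to each other in identifier and in ratio. LOC_Os07g33954.1 had 71.1 in f5-i/i against 307 in f5-j/j, and LOC_Os07g33910.2 had 19.4 in f5-i/i against 79.2 in f5-j/j. The plasma membrane proton pump type H+-transporting ATPase (LOC_Os04g56160.3) had 23.0 in f5-i/i against 104 in f5-j/j, and the water channel aquaporin PIP (LOC_Os07g26630.1) had 7.80 in f5-i/i against 39.1 in f5-j/j. These 5 transcripts were lower by 3.89- to 5.01-fold. The other lower loci of the group lay outside that range. A nucleobase transporter (LOC_Os05g07940.2) had 0.477 in f5-i/i against 10.1 in f5-j/j, 21.1-fold lower. A magnesium transporter (LOC_Os03g48000.2) and a GDP-mannose transporter (LOC_Os03g11590.1) stood at 0.01 in f5-i/i, with 4.76 and 11.9 in f5-j/j. Higher in f5-i/i was the ATP:ADP antiporter (LOC_Os02g11740.2), with 16.7 in f5-i/i against 1.66 in f5-j/j. So was a solute carrier family 35 member E3 (LOC_Os01g07310.2), with 20.3 in f5-i/i against 0.01 in f5-j/j. Both loci described as myo-inositol transporters, given next, were higher too.

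A few listed transcripts have descriptions that concern inositol, for which no word list was fixed. Inositol is a precursor of membrane lipids, of phosphate stores and of the raffinose family of sugars. Myo-inositol-1-phosphate synthase (LOC_Os03g09250.1), which commits glucose 6-phosphate to inositol, had 52.9 in f5-i/i against 189 in f5-j/j. Inositol 3-alpha-galactosyltransferase (LOC_Os03g20120.1), which makes galactinol for the raffinose sugars, had 8.01 in f5-i/i against 33.6 in f5-j/j and is named here after its values were seen. Both loci described as myo-inositol transporters ran the other way. That name is taken over from similar proteins, and whether they carry inositol was not checked. LOC_Os10g39440.2 had 38.1 in f5-i/i against 0.150 in f5-j/j, and LOC_Os11g40540.1 had 4.26 in f5-i/i against 0.01 in f5-j/j.

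Amino acid, nucleotide and cofactor loci were higher in f5-i/i at 5 of 7 loci (10 of 17 with mistaken matches). Both branches of thiamine synthesis, the vitamin whose pyrophosphate serves the enzymes of carbon metabolism, were among them. Thiamine thiazole synthase (LOC_Os07g34570.1), which makes the thiazole ring, had 304 in f5-i/i against 72.3 in f5-j/j, 4.21-fold higher. Phosphomethylpyrimidine synthase (LOC_Os03g47610), which makes the pyrimidine ring, had 13.3 in f5-i/i against 0.933 in f5-j/j, 14.3-fold higher. Its 7 listed models carry identical means and count as 1 locus. Cysteine synthase A (LOC_Os03g53650.4), the last step of sulfur assimilation, had 16.02 in f5-i/i against 0.247 in f5-j/j. Aspartate aminotransferase (LOC_Os01g55540.2) had 26.5 in f5-i/i against 4.96 in f5-j/j, and glutamate decarboxylase (LOC_Os08g36320.3), which makes gamma-aminobutyrate, had 12.0 in f5-i/i against 0.01 in f5-j/j. Lower in f5-i/i were glutamine synthetase (LOC_Os02g50240.2) and the auxin synthesis enzyme tryptophan-pyruvate aminotransferase (LOC_Os01g55050.1), each at the lowest value there. The 7 loci held no enzyme of nucleotide synthesis, and members of this role that the words missed include lower ones. Aspartate-semialdehyde dehydrogenase (LOC_Os03g63370.1), of lysine, threonine and methionine synthesis, had 12.6 in f5-i/i against 58.9 in f5-j/j. Anthranilate phosphoribosyltransferase of tryptophan synthesis (LOC_Os03g03450.2), adenylosuccinate lyase (LOC_Os03g19930.3) and IMP dehydrogenase (LOC_Os03g56800.2) stood at 0.01 in f5-i/i, with 7.21, 12.0 and 5.06 in f5-j/j. Nucleotide enzymes on the higher side were UMP-CMP kinase (LOC_Os07g43170.2) and a purine formyltransferase (LOC_Os08g10570.1), with 8.04 and 13.0 in f5-i/i against 0.01 in f5-j/j. These were named after their values were seen.

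**Figure D3:**
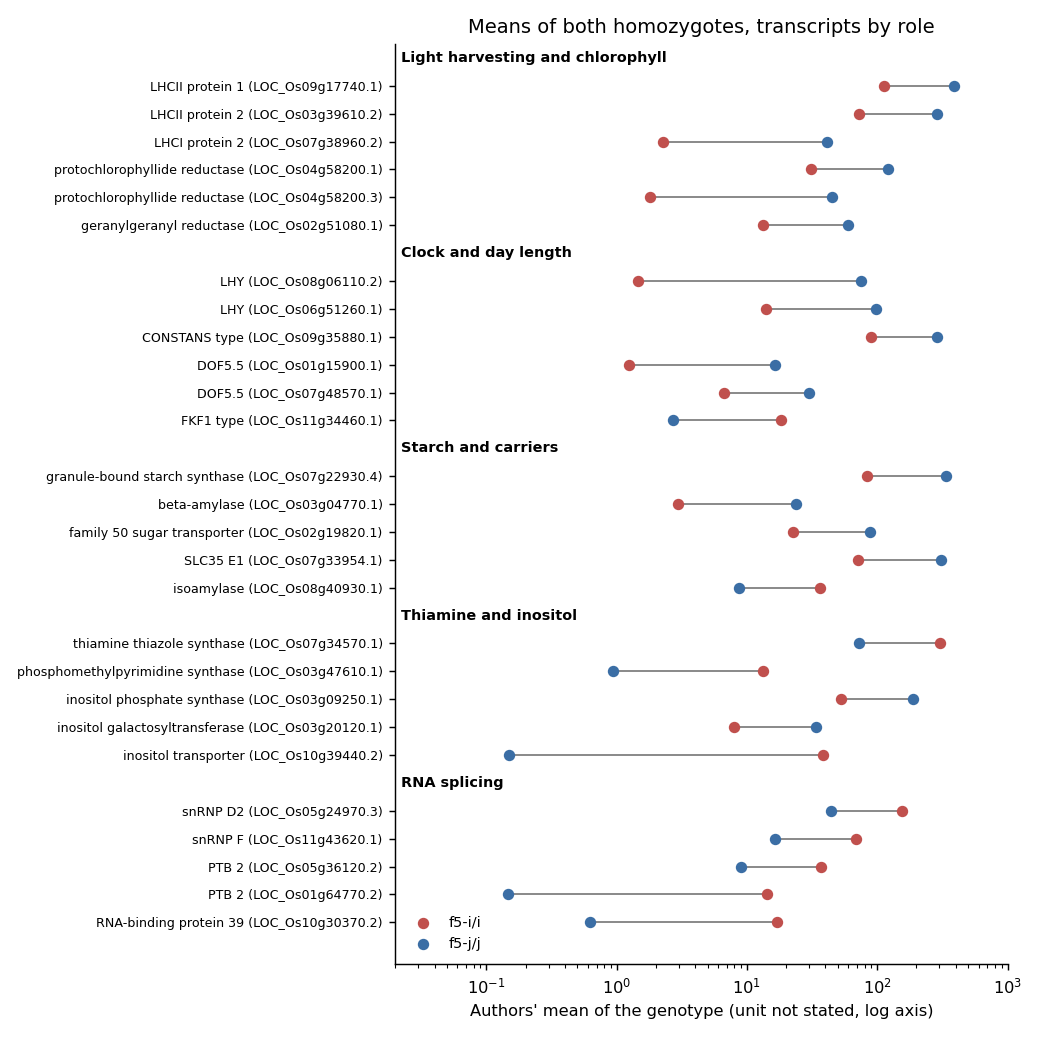
Each line joins the authors' mean in f5-i/i to that in f5-j/j for 1 transcript above the lowest value, on a log axis in a unit that is not stated, for transcripts named in the text and sorted by role. In the light, starch and clock sets f5-i/i lies to the left (lower) except for FKF1 and isoamylase. It lies to the right for both thiamine enzymes, the locus described as an inositol transporter and the splicing set. The transcripts were picked for display, with the polypyrimidine tract-binding ones from outside the splicing word list. Lower transcripts of RNA processing, such as an exoribonuclease and a proteinaceous RNase P, are not shown, so the direction within a set follows in part from the picking.

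Lipid loci were lower in f5-i/i at 5 of 7 loci (5 of 8 with a peptidase matched by its name). Long-chain acyl-CoA synthetases activate free fatty acids for lipid synthesis or breakdown, and all 3 listed loci of this enzyme were lower in f5-i/i. LOC_Os11g35400.2 had 2.04 in f5-i/i against 24.5 in f5-j/j. LOC_Os05g04170.4 and LOC_Os11g04980.1 stood at 0.01 in f5-i/i, with 114 and 5.89 in f5-j/j. A decarboxylating sterol 3-dehydrogenase of sterol synthesis (LOC_Os05g14440.1) had 0.243 in f5-i/i against 9.26 in f5-j/j. Higher in f5-i/i were 3-oxoacyl-[acyl-carrier protein] reductase of fatty acid synthesis (LOC_Os12g13930.1), with 59.0 in f5-i/i against 14.4 in f5-j/j, and a glycerol-3-phosphate acyltransferase (LOC_Os11g29120.2), with 12.8 in f5-i/i against 0.01 in f5-j/j. Outside the group, phosphoethanolamine N-methyltransferase (LOC_Os05g47540.2), which makes the choline of membrane lipids, had 102 in f5-i/i against 21.1 in f5-j/j. Hydroxymethylglutaryl-CoA reductase (LOC_Os08g40180.1), which feeds sterol synthesis, had 13.2 in f5-i/i against 82.6 in f5-j/j and is named here after its values were seen. Cycloartenol synthase (LOC_Os02g04690.2), a later enzyme of sterol synthesis, ran the other way, with 3.58 in f5-i/i against 0.01 in f5-j/j, and was likewise picked.

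Splicing, processing and decay of RNA was higher in f5-i/i at 8 loci and lower at 3 (9 and 4 with mistaken matches), against 45.3% higher over all listed loci. Small nuclear ribonucleoproteins D2 and F belong to the Sm ring at the core of the spliceosome. D2 (LOC_Os05g24970.3) had 154 in f5-i/i against 44.5 in f5-j/j, and its model 1 had 56.0 in f5-i/i against 16.1 in f5-j/j. The F protein (LOC_Os11g43620.1) had 68.3 in f5-i/i against 16.5 in f5-j/j, so the 2 Sm proteins differed by 3.46- to 4.14-fold. RNA-binding protein 39 (LOC_Os10g30370.2), a splicing regulator in animals, had 17.1 in f5-i/i against 0.620 in f5-j/j. Serine/arginine-rich factors, which guide splice site choice, went both ways: factor 7 (LOC_Os06g08840.8) had 17.9 in f5-i/i against 0.01 in f5-j/j, and factor 2 (LOC_Os08g37960.3) had 0.01 in f5-i/i against 6.64 in f5-j/j. A wybutosine-synthesizing protein of tRNA modification (LOC_Os10g36690.5) stood at 43.5 in f5-i/i, and Dicer (LOC_Os08g42189.3), which cuts double-stranded RNA into small RNAs, at 7.72, both at 0.01 in f5-j/j. Outside the word list, polypyrimidine tract-binding protein 2, a splicing regulator, was higher at both of its listed loci. LOC_Os01g64770.2 had 14.4 in f5-i/i against 0.147 in f5-j/j, and LOC_Os05g36120.2, named after its values were seen, had 36.9 in f5-i/i against 9.02 in f5-j/j. Other RNA-processing loci outside the list lay on both sides, and the following were also picked after their values were seen. The 5'-3' exoribonuclease 2 (LOC_Os09g07360.1), which degrades RNA in the nucleus, had 43.3 in f5-i/i against 143 in f5-j/j. A proteinaceous RNase P (LOC_Os04g59610.2), which trims tRNA precursors, had 6.29 in f5-i/i against 28.9 in f5-j/j. Mago nashi of the exon junction complex (LOC_Os08g01660.1), a CCR4-NOT subunit 7/8 of poly(A) removal (LOC_Os08g44820.1) and serine/arginine repetitive matrix protein 2 (LOC_Os11g06130.3) stood at 0.01 in f5-i/i, with 4.12, 8.26 and 6.02 in f5-j/j. A YTH domain protein (LOC_Os02g51140.2) had 15.5 in f5-i/i against 0.943 in f5-j/j, and symplekin (LOC_Os01g49940.2), of the polyadenylation machinery, had 7.86 in f5-i/i against 0.01 in f5-j/j. The count for this role therefore holds for its word list.

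Ribosome and translation loci were 9 higher, 6 lower and 1 both ways, and the ribosomal proteins themselves were listed in both directions. Of those above the lowest value, L18e (LOC_Os04g46830.2) had 34.6 in f5-i/i against 4.35 in f5-j/j, and L13e (LOC_Os06g02510.5) had 57.1 in f5-i/i against 16.7 in f5-j/j. L11e (LOC_Os02g14059.2) had 3.93 in f5-i/i against 69.9 in f5-j/j, and a model described as S15e (LOC_Os01g56780.3) had 0.573 in f5-i/i against 22.4 in f5-j/j. The coding length of that model is 2352 bases, long for a ribosomal protein, so its description is doubtful. L30e (LOC_Os01g16890.2) stood at 33.4 in f5-i/i against 0.01 in f5-j/j, whereas L15e (LOC_Os03g40180.2) stood at 0.01 in f5-i/i against 17.7 in f5-j/j. Ribosomal proteins come from several near-identical genes each, so these values do not give the level of a protein. The enzymes that load tRNA were opposite too. Prolyl-tRNA synthetase (LOC_Os12g25710.4) had 29.5 in f5-i/i against 0.01 in f5-j/j, and seryl-tRNA synthetase (LOC_Os01g37837.2) had 0.0767 in f5-i/i against 10.8 in f5-j/j, the largest ratio among the transcripts lower in f5-i/i.

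Chromatin and cell division loci lay 7 on the higher and 2 on the lower side in f5-i/i, but only 3 of the 9 listed transcripts lay above the lowest value in both genotypes. SETD2 (LOC_Os09g13740.2), a histone methyltransferase, had 9.43 in f5-i/i against 0.0467 in f5-j/j, and an SWI/SNF-related chromatin remodeler (LOC_Os04g40430.1) had 18.3 in f5-i/i against 2.85 in f5-j/j. Cyclin C (LOC_Os09g32680.4) ran the other way, with 5.15 in f5-i/i against 41.4 in f5-j/j. Its partner kinase in the Mediator complex, described as cyclin-dependent kinase 8/11 (LOC_Os10g42950.2), had 4.18 in f5-i/i against 0.01 in f5-j/j. A histone deacetylase (LOC_Os06g38470.3) was likewise at 4.07 in f5-i/i against 0.01 in f5-j/j. Lysine-specific demethylase 8, outside the word list and named after its values were seen, was higher at both of its loci, with 30.6 in f5-i/i against 4.59 in f5-j/j at LOC_Os09g31380.1 and 8.42 in f5-i/i against 0.320 in f5-j/j at LOC_Os08g39810.1.

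Transcription factors and the transcription machinery were lower in f5-i/i at 14 loci, higher at 7 and both ways at 1, against 54.7% lower over all listed loci. The group shares the LHY, CONSTANS and DOF5.5 loci with the paragraph on the clock. Of its 16 transcripts above the lowest value, 13 were lower, 4 of them the identical models of LHY. Jasmonate is a hormone of wounding and of stamen development, and MYC2 is its main transcription factor in Arabidopsis. A locus described as MYC2 (LOC_Os04g23550.1) had 0.883 in f5-i/i against 12.5 in f5-j/j. That name is taken over from a similar protein, and whether this locus is the MYC2 of rice was not checked. The jasmonate ZIM-domain repressor that binds MYC2 in Arabidopsis is represented by LOC_Os03g08330.1, which was 13.3-fold lower. WRKY transcription factor 1 (LOC_Os02g08440.4), of a family known in defence, had 0.8 in f5-i/i against 14 in f5-j/j. Mediator links transcription factors to RNA polymerase II, and the loci described as its subunits 13, 18 and 20 were lower in f5-i/i. Subunit 20 (LOC_Os05g18810.1) had 0.167 in f5-i/i against 8.39 in f5-j/j. Its coding length is 1776 bases, long for this subunit, so its description is doubtful. Subunits 13 and 18 stood at 0.01 in f5-i/i, with 7.93 and 3.41 in f5-j/j. Of the Mediator members named with chromatin, cyclin C was lower but cyclin-dependent kinase 8/11 was higher, so the complex went both ways. The largest subunit of RNA polymerase II (LOC_Os11g45290.2) was detected at 18.6 in f5-i/i against 0.01 in f5-j/j.

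Hormone loci were 2 higher and 3 lower. Auxin response factor LOC_Os12g29520.3, which binds auxin-responsive promoters, had 7.05 in f5-i/i against 0.01 in f5-j/j. An auxin-responsive IAA repressor (LOC_Os01g09450.1), of the family that holds such factors inactive, had 0.01 in f5-i/i against 8.46 in f5-j/j. A type-B response regulator of cytokinin (LOC_Os01g74020.1) was 109.8-fold higher in f5-i/i, with a mean of 0.117 in f5-j/j near the lowest value. The words missed members of this role on both sides. Aminocyclopropanecarboxylate oxidase of ethylene synthesis (LOC_Os09g07020.2), named after its values were seen, had 0.01 in f5-i/i against 7.46 in f5-j/j. The locus described as MYC2 was lower too, and both SRK2 loci given next were higher.

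Kinases, phosphatases and other signalling proteins were 7 higher and 9 lower (21 and 20 with mistaken matches, which were many for this list). SnRK2 kinases, described as SRK2, act in abscisic acid and drought signalling, and both listed loci were higher. LOC_Os12g39630.1 had 74.8 in f5-i/i against 8.01 in f5-j/j, and LOC_Os07g42940.8 had 10.8 in f5-i/i against 0.01 in f5-j/j. A protein phosphatase 2C (LOC_Os03g16170.2), of a family with members that inactivate SnRK2 kinases in Arabidopsis, had 0.870 in f5-i/i against 12.6 in f5-j/j. The 2 loci described as catalytic subunits of AMP-activated protein kinase were opposite. That name is taken over from similar proteins, and whether these loci are that kinase in rice was not checked. LOC_Os03g22050.4 had 68.7 in f5-i/i against 14.5 in f5-j/j, and LOC_Os01g18800.1 had 0.01 in f5-i/i against 16.1 in f5-j/j. Glycogen synthase kinase 3 beta (LOC_Os01g19150.3), of a family that acts in brassinosteroid signalling in plants, had 9.29 in f5-i/i against 39.5 in f5-j/j.

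Protein degradation by ubiquitin and the proteasome was 9 higher, 8 lower and 2 both ways (10 higher with a mistaken match). Loci described as proteasome subunits were higher in f5-i/i at 3 of 4 loci, against 45.3% higher over all listed loci. Subunit N12 (LOC_Os07g25420.2) had 27.2 in f5-i/i against 5.11 in f5-j/j, and N2 (LOC_Os08g12820.2) and non-ATPase subunit 5 (LOC_Os05g48340.2) had 8.14 and 5.93 in f5-i/i against 0.01 in f5-j/j. Non-ATPase subunit 10 (LOC_Os09g33810.2) was the exception, with 0.870 in f5-i/i against 61.1 in f5-j/j. Ubiquitin ligases choose the protein to be degraded, and 5 of the 6 loci described as E3 ubiquitin-protein ligases were lower. HERC4 was lower at both of its loci, with 3.67 in f5-i/i against 34.3 in f5-j/j at LOC_Os01g62810.2 and 7.98 in f5-i/i against 37.9 in f5-j/j at LOC_Os05g38270.2. Subunit 2 of the COP9 signalosome (LOC_Os01g59130.3), which regulates such ligases, had 5.95 in f5-i/i against 0.107 in f5-j/j.

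Heat shock and folding loci were 2 higher, 4 lower and 1 both ways. The higher loci were a DnaJ A2 co-chaperone (LOC_Os04g46390.3), at 93.8 in f5-i/i against 0.01 in f5-j/j, and the heat shock transcription factor LOC_Os03g53340.4, at 24.9 in f5-i/i against 0.0267 in f5-j/j. Calnexin (LOC_Os04g32950.4) and calreticulin (LOC_Os07g14270.2), lectin chaperones of the endoplasmic reticulum, stood at 0.01 in f5-i/i, with 17.6 and 8.53 in f5-j/j. DnaJ B6 (LOC_Os02g54130.3) had 7.42 in f5-i/i against 39.4 in f5-j/j, and DnaJ C3 (LOC_Os01g74580.2) had 2.89 in f5-i/i against 21.7 in f5-j/j. The 4 lower loci thus held both lectin chaperones and 2 DnaJ proteins.

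Vesicle traffic was higher in f5-i/i at 6 loci and lower at 3 (4 lower with a mistaken match), against 45.3% higher over all listed loci. Syntaxins drive membrane fusion, and syntaxin 7 (LOC_Os02g47440.2) had 71.9 in f5-i/i against 20.5 in f5-j/j, while SYP5 (LOC_Os02g02720.4) had 18.7 in f5-i/i against 2.91 in f5-j/j. Subunit 41 of vacuolar sorting (LOC_Os04g11880.2) had 34.2 in f5-i/i against 7.92 in f5-j/j. Rab GTPases, the switches of vesicle identity, were lower at all 3 listed loci. Rab-7A LOC_Os06g38320.3 had 13.7 in f5-i/i against 55.1 in f5-j/j, and Rab-7A LOC_Os01g51700.2 and Rab-2A LOC_Os04g39440.1 stood at 0.01 in f5-i/i. Traffic loci that the words missed lay on both sides, and these were picked after their values were seen. Epsin (LOC_Os04g51120.3) had 54.0 in f5-i/i against 9.47 in f5-j/j, and dynamin (LOC_Os05g48240.4) had 6.98 against 0.01. An AP-1 sigma subunit (LOC_Os03g57040.1) had 0.01 in f5-i/i against 4.79 in f5-j/j. Both trafficking protein particle subunits, under other observations, were lower. The count therefore holds for its word list.

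Redox loci were 6 higher and 7 lower (8 lower with a mistaken match). Respiratory burst oxidases make extracellular superoxide, and the 2 listed loci were opposite, with 31.7 in f5-i/i against 4.13 in f5-j/j for LOC_Os01g25820.2 and 8.69 in f5-i/i against 34.7 in f5-j/j for LOC_Os04g36720.1. Glutathione peroxidase (LOC_Os04g46960.3) had 30.3 in f5-i/i against 0.01 in f5-j/j, and lactoylglutathione lyase (LOC_Os01g70790.1), which removes methylglyoxal, had 15.04 in f5-i/i against 50.1 in f5-j/j. A complex I subunit of the mitochondrial chain (LOC_Os11g31900.3) had 17.3 in f5-i/i against 55.6 in f5-j/j. Outside the list, alcohol dehydrogenase (LOC_Os11g10480.4), the last enzyme of ethanol fermentation, was 5.65-fold lower, with 28.8 in f5-i/i against 162 in f5-j/j.

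Cell wall and cytoskeleton loci were 4 higher and 5 lower (5 and 5 with a mistaken match). Cellulose synthase A (LOC_Os07g24190.3) and pectinesterase (LOC_Os01g21034.2), which build and modify the wall, had 15.1 and 7.58 in f5-i/i against 0.01 in f5-j/j. Wall-degrading enzymes of the list were lower, while a mannan endo-1,4-beta-mannosidase outside it (LOC_Os03g61280.2) had 6.03 in f5-i/i against 0.103 in f5-j/j. A galacturonidase (LOC_Os05g20020.1), which trims pectin, had 1.01 in f5-i/i against 16.3 in f5-j/j, and both glucan endo-1,3-beta-glucosidases (LOC_Os11g47820.2 and LOC_Os05g31140.1) stood at 0.01 in f5-i/i, with 7.72 and 5.62 in f5-j/j. Motor proteins of microtubules were opposite. Kinesin family member C2/C3 (LOC_Os08g40790.4) had 15.3 in f5-i/i against 1.38 in f5-j/j. Kinesin family member 5 (LOC_Os01g22660.3) had 4.22 in f5-i/i against 21.3 in f5-j/j. Secondary metabolism had 2 loci higher and 1 lower and proteases 1 higher and 1 lower, and the lists of defence and of transposons held no locus once a matched transporter was left out.

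Few of the marker loci of male reproduction and of floral organs were listed, and since the number of loci tested is not known, no share of all loci can be set beside these counts. The tapetum and pollen wall list of 22 loci had 1 listed member, the tapetal lipid transfer protein C6 (LOC_Os11g37280.1). It had 33.8 in f5-i/i next to 34.1 in f5-i/j, against 0.413 in f5-j/j. Of 11 meiosis loci, 0 were listed, and of 12 MADS-box loci of floral organs, 1 was. This was LOC_Os01g66030.2, the OsMADS2 locus of lodicule identity, with 31.3 in f5-i/i against 5.98 in f5-j/j. An unlisted locus may be equally expressed or not detected, so a filtered list cannot check the labelled tissue further.

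Loci of 1 KEGG Orthology entry served to ask whether related genes lay on the same side. There were 22 entries with several listed loci, 46 loci in all. In 14 entries all listed loci lay on 1 side, 4 of them higher and 10 lower in f5-i/i. Of the 19 entries with 2 loci of 1 direction each, 13 had both loci on the same side and 6 had them on opposite sides, in a list where 45.3% of loci were higher, so many such pairs would be on the same side without any relation. Higher were the loci described as myo-inositol transporters, SRK2 kinases, polypyrimidine tract-binding proteins and lysine demethylases. Lower were, beside those described above, UDP-glucuronate decarboxylases, which make UDP-xylose for the wall, EREBP-like factors, a pair of loci described by the animal name collagen, and CTD small phosphatase-like proteins. UDP-glucuronate decarboxylase LOC_Os09g29060.1 had 9.95 in f5-i/i against 38.2 in f5-j/j, and LOC_Os03g16980 stood at 0.01 in f5-i/i against 24.5 in f5-j/j. The CTD small phosphatase-like protein LOC_Os07g47510.1 had 119 in f5-i/i against 434 in f5-j/j. The other 8 entries held loci on both sides, among them those described as AMP-activated kinases and as respiratory burst oxidases.

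Opposite directions also occurred within a locus. At 8 loci 1 transcript model was higher and another lower in f5-i/i. At LOC_Os08g39140, an HtpG chaperone of the HSP90 family, model 2 had 265 in f5-i/i against 6.70 in f5-j/j, and model 1 had 0.01 in f5-i/i against 200 in f5-j/j. At the MYB locus LOC_Os01g40670, model 1 had 53.4 in f5-i/i against 14.5 in f5-j/j, and model 2 had 1.87 in f5-i/i against 32.2 in f5-j/j. The initiation factor 4G, a scaffold of cap-dependent translation (LOC_Os01g42970), had model 1 at 31.5 in f5-i/i against 0.01 in f5-j/j. Its model 2 had 14.4 in f5-i/i against 51.7 in f5-j/j. At LOC_Os08g37720, which has no description, model 1 had 39.7 in f5-i/i against 8.35 in f5-j/j, and model 2 had 0.01 in f5-i/i against 37.8 in f5-j/j. The loci were chosen for models in opposite directions, so a smaller difference of their sum follows in part from that choice. Summed over the listed models, the means were 265 in f5-i/i against 207 in f5-j/j for HtpG, 55.3 in f5-i/i against 46.7 in f5-j/j for the MYB locus, and 45.8 in f5-i/i against 51.7 in f5-j/j for initiation factor 4G. At 6 of the 8 loci the sums differed by less than 2-fold. The exceptions were an F-box protein (LOC_Os04g42470), with sums of 4.31 in f5-i/i against 17.1 in f5-j/j, and ubiquitin C (LOC_Os04g53620), with 34.2 in f5-i/i against 98.3 in f5-j/j. Whether the unit is corrected for length is not known, and models that were not listed are not in these sums.

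**Figure D4:**
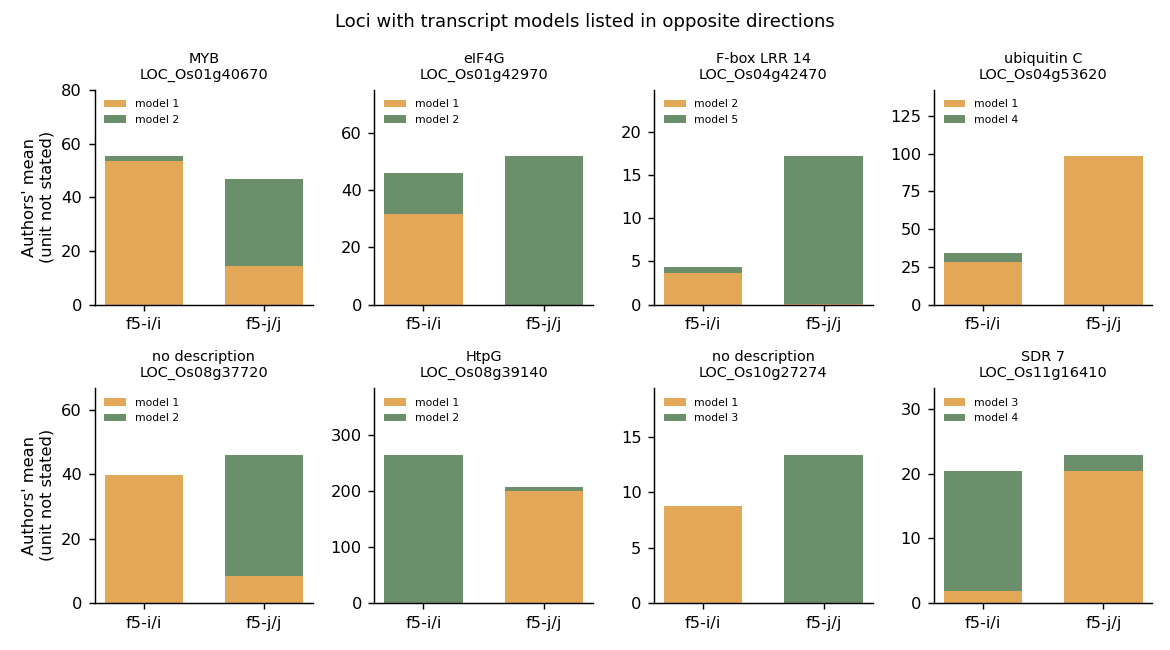
Stacked bars give the authors' means of the 2 listed transcript models at each of 8 loci, in f5-i/i (left) and f5-j/j (right), in a unit that is not stated. The model that makes up most of the bar changes between the genotypes at each locus except ubiquitin C, and at 6 loci the height of the whole bar differs by less than 2-fold, which follows in part from choosing loci with opposite models.

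Transcript models were also set out by their number, with no test of the difference. Of the 214 transcripts at the lowest value in 1 genotype, 63 were model 1 (29.4%), and of the 207 above the lowest value 96 were (46.4%). Among transcripts at 0.01 in f5-j/j, 22 of 101 were model 1 (21.8%), and among those at 0.01 in f5-i/i, 41 of 113 (36.3%). Coding length had a median of 925.5 bases at the lowest value and 915 above it. Of all loci, 30 had several listed models, up to 7, and at 12 of these the models carry identical means, so the listed transcripts are fewer measurements than their number.

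KEGG Orthology entries were given for 295 of the 421 transcripts (70.1%) and GO terms for 256, and 78 had neither. Some transcripts of high level have no description. LOC_Os11g06720.1 had the largest means of the list, 7124 in f5-i/i against 1743 in f5-j/j, and LOC_Os03g52690.5 had 237 in f5-i/i against 18.1 in f5-j/j. In the other direction LOC_Os03g41060.1 had 55.7 in f5-i/i against 235 in f5-j/j. Among GO terms, a few are given here beside 45.3% higher and 54.7% lower over all listed loci. The term cytoplasmic vesicle held 35 listed loci, 11 higher and 24 lower, and the term intrinsic to membrane 21 loci, 7 higher and 14 lower. The role of vesicle traffic, sorted by other words, leaned the other way, with 6 higher and 3 lower. Gene expression and ribonucleoprotein complex had 6 higher and 2 lower each. The most frequent term, intracellular membrane-bounded organelle, was close to even, with 37 higher and 38 lower.

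By chromosome, chromosome 3 held the most listed loci, 57, 22 on the higher and 35 on the lower side in f5-i/i. Chromosome 5 held 44 loci (11.6%), 19 higher and 25 lower. On chromosome 1, 13 loci were higher, 32 lower and 2 both ways, and on chromosome 9, 5 were higher and 12 lower. More loci were higher than lower on chromosome 6 (13 and 7), chromosome 10 (14 and 7), chromosome 8 (15 and 12) and chromosome 7 (13 and 12). The number of loci tested on each chromosome is not known, so the counts say nothing of density.

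The mean of the heterozygote f5-i/j is known for 274 of the 421 transcripts, those that another table also lists. This comparison shares its f5-i/i and f5-j/j means with the other 2 tables, so overlaps follow in part from shared samples. The table that pairs the heterozygote with f5-i/i lists 185 of the transcripts and the table that pairs it with f5-j/j lists 101, while 12 transcripts are in all 3 tables. Values side by side show several arrangements. The carrier LOC_Os07g33954.1 had 71.1 in f5-i/i next to 261 in f5-i/j, against 307 in f5-j/j, and myo-inositol-1-phosphate synthase had 52.9 in f5-i/i next to 188 in f5-i/j, against 189 in f5-j/j. The SRK2 kinase LOC_Os12g39630.1 also had f5-i/i apart, at 74.8 in f5-i/i next to 8.44 in f5-i/j, against 8.01 in f5-j/j. In SETD2 it was f5-j/j that stood apart, at 9.43 in f5-i/i next to 8.09 in f5-i/j, against 0.0467 in f5-j/j. The malate dehydrogenase model lay between, at 90.9 in f5-i/i next to 49.1 in f5-i/j, against 0.01 in f5-j/j. HtpG model 2 had its lowest mean in the heterozygote, at 265 in f5-i/i next to 0.820 in f5-i/j, against 6.70 in f5-j/j.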

How the data were processed

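Spikelet polyA RNA of 9 samples, 3 per genotype, was sequenced after random-primed cDNA synthesis, per the labels' protocols. Per the submitters' processing notes, the tools included BWA, Bowtie and RSEM, with no role or version. Genome build, annotation, normalization and the program behind the probabilities stay unnamed, being not given in the sources used here. Depth per sample is unknown. Each deposited signal value is the authors' average of a genotype, per the file headers, in a unit that is not stated, and each equals a sum of whole hundredths divided by 3 (100% of the means). The genotype of a mean column was read from the table's name and from means that recur between tables. The deposited log2 ratio was recomputed as f5-i/i over f5-j/j. The deposited probability, from 0.800 to 1.00 with a threshold of 0.8, is a score given by the authors and not a p-value. Coding lengths are all multiples of 3.

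The values were tabulated with Python 3.11.15, pandas 2.3.3 and scipy 1.17.1, and the script was tested on simulated data. Since only means are deposited, no test was made, and shares have Wilson 95% intervals for counting error only. Loci were counted once. The members, word lists, markers and rules were chosen with earlier results of these data known. Transcripts were named by these rules: above the lowest value the 15 with the largest ratio and the 15 with the largest difference in each direction, at the lowest value the 15 with the largest mean in each direction, up to 6 per role by larger mean, models of loci listed both ways, and listed markers. Others are mentioned only as chosen after their values were seen, or as members of a family, role or limit counted in full. Mistaken word matches were removed after the data were seen. The symbol OsMADS2 rests on the best KEGG match and on RefSeq names of assembly ASM3414082v1. Alternatives were a probability of at least 0.9, a log2 ratio of at least 2, leaving out means of 0.01, a larger mean of at least 5, a pseudocount of 1 and 1 transcript per locus. Columns of other series numbered 0. No sequence is given.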

Additional observations from a re-analysis of the deposited data

How the results depend on the processing

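No paired analysis was possible because the deposited tables hold genotype means only, and for the same reason no sample could be left out in turn. With a probability of at least 0.9 the share of transcripts higher in f5-i/i was 50.9% (108 transcripts), against 45.1% over all, and the median log2 ratio in either direction was 6.35 (17 transcripts above the lowest value), against 2.88. With a log2 ratio of at least 2 that median was 3.22 (173 transcripts). Both settings keep the larger ratios by their construction. Of 48 alternatives for the 16 roles with at least 5 loci, 41 lay within the counting interval of the share of loci higher, taken over the word lists with mistaken matches. Without means of 0.01 this share was 0% for photosynthesis (4 loci), against 14.3%, 16.7% for sugar, starch and central carbon (6 loci), against 50%, 33.3% for signalling (21 loci), against 51.2%, 33.3% for ubiquitin and proteasome (9 loci), against 55.6%, and 87.5% for amino acid, nucleotide and cofactor metabolism (8 loci), against 58.8%. With a probability of at least 0.9 it was 0% for photosynthesis (1 locus) and 80.0% for signalling (15 loci). Depth is unknown and limits what the 214 rows at the lowest value can show.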

Other observations

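Several listed transcripts belong to protein folding and quality control in the endoplasmic reticulum, beyond calnexin, calreticulin and DnaJ C3. They were gathered after their values were seen, so their common direction is a description. The protein kinase C substrate 80K-H (LOC_Os01g16970.3), known as the beta subunit of the glucosidase that prepares glycoproteins for calnexin, had 3.53 in f5-i/i against 45.1 in f5-j/j by the authors' mean. Thioredoxin domain-containing protein 5 (LOC_Os03g17860.2), of the disulfide-forming enzymes, had 0.01 in f5-i/i against 6.06 in f5-j/j. Derlin-2/3 (LOC_Os05g09550.3), which helps to export misfolded proteins, had 0.01 in f5-i/i against 4.78 in f5-j/j. Other proteins of the same compartment ran the other way, such as the alpha subunit of the signal recognition particle receptor (LOC_Os08g37444.6), with 105 in f5-i/i against 0.01 in f5-j/j, and SEC22 (LOC_Os06g09850.3), with 8.23 in f5-i/i against 0.01 in f5-j/j.

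Subunits of small complexes were also compared, again after their values were seen. Both listed subunits of the trafficking protein particle complex were lower in f5-i/i, with 0.397 in f5-i/i against 11.5 in f5-j/j for subunit 4 (LOC_Os06g05804.4) and 4.72 in f5-i/i against 55.5 in f5-j/j for subunit 13 (LOC_Os03g19560.1). The nuclear cap-binding proteins were opposite, with subunit 1 (LOC_Os03g22570.1) at 0.01 in f5-i/i against 3.90 in f5-j/j, and subunit 2 (LOC_Os02g39890.2) at 10.6 in f5-i/i against 0.01 in f5-j/j. Peroxins, which serve peroxisome assembly, were opposite as well, with peroxin-14 (LOC_Os05g01090.3) at 7.62 in f5-i/i against 0.01 in f5-j/j, and peroxin-1 (LOC_Os09g39034.1) at 0.01 in f5-i/i against 4.87 in f5-j/j.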
